A study of Caenorhabditis elegans with 12 samples.

Results

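The insulin-like peptides are a large family of small secreted proteins in the nematode Caenorhabditis elegans, encoded by the ins genes and daf-28. They bind a single insulin receptor, DAF-2. Some act as agonists of DAF-2 and some as antagonists, and the balance between them sets whether larvae grow or enter dauer arrest and affects adult lifespan and stress resistance. Active DAF-2 signals through a phosphoinositide kinase cascade that keeps the transcription factor DAF-16 out of the nucleus. Many family members are made in neurons, and some in the intestine or other tissues.

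Genes were taken as members where the gene name was ins followed by a number, or daf-28, which gave 38 of the 24238 genes measured. The annotation of the WBcel235 assembly holds 40 such symbols, and ins-8 and ins-38 are not analysed here. The 12 libraries were made from polyadenylated RNA of entire N2 animals, the Bristol wild-type strain. The control group of 6 libraries came from animals given the solvent dimethyl sulfoxide (DMSO). The other 6 came from animals that had received the copper chelator tetrathiomolybdate (TM) for 4 days. The labels state no developmental stage, sex, dose or number of animals, and nothing in them says that the libraries of a group came from separate cultures. The p-values therefore rest on library-to-library spread, part of which may be technical.

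Each library held between 61432401 and 67068328 counts. On the first principal component of all tested genes DMSO replicate 6 lay at -9.58, between the other DMSO libraries (-62.3 to -43.3) and the TM libraries (41.8 to 55.2). On the second component DMSO replicates 6 and 2 and TM replicate 5 lay apart, at -31.1, -22.1 and -42.1, with the other libraries from 0.940 to 17.7. Calls that end or begin without these libraries are given without them below. In whole animals, fewer cells of a type and less RNA per cell cannot be told apart.

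Most of the family was rare. FPKM, fragments scaled to transcript length and library size, is used for all levels. Whether this scaling makes genes as short as the members comparable with longer genes was not tested. A mean of 1 FPKM over the 12 libraries was reached by 14 of the 38 members, against 47.6% of all genes in the table. The mean of the DMSO libraries reached 1 FPKM for 12 members, against 44.7% of all genes, and the mean of the TM libraries for 16 members, against 49.7%. The 4 members that reached it only in TM were ins-7, ins-28, ins-35 and ins-37, and 0 members reached it only in DMSO. Among all genes 5.42% reached 1 FPKM only in TM and 0.479% only in DMSO. In single libraries, between 11 and 16 members (median 13.5) were at 1 FPKM or more in DMSO, and between 14 and 17 (median 16) in TM. In all 12 libraries 7 members were at or above 1 FPKM, 14 were so in some libraries, and 17 in none. The member closest above the limit was ins-28, with a mean of 1.003 FPKM over all libraries, and the closest below was ins-24, with 0.982 FPKM.

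**Figure D1:**
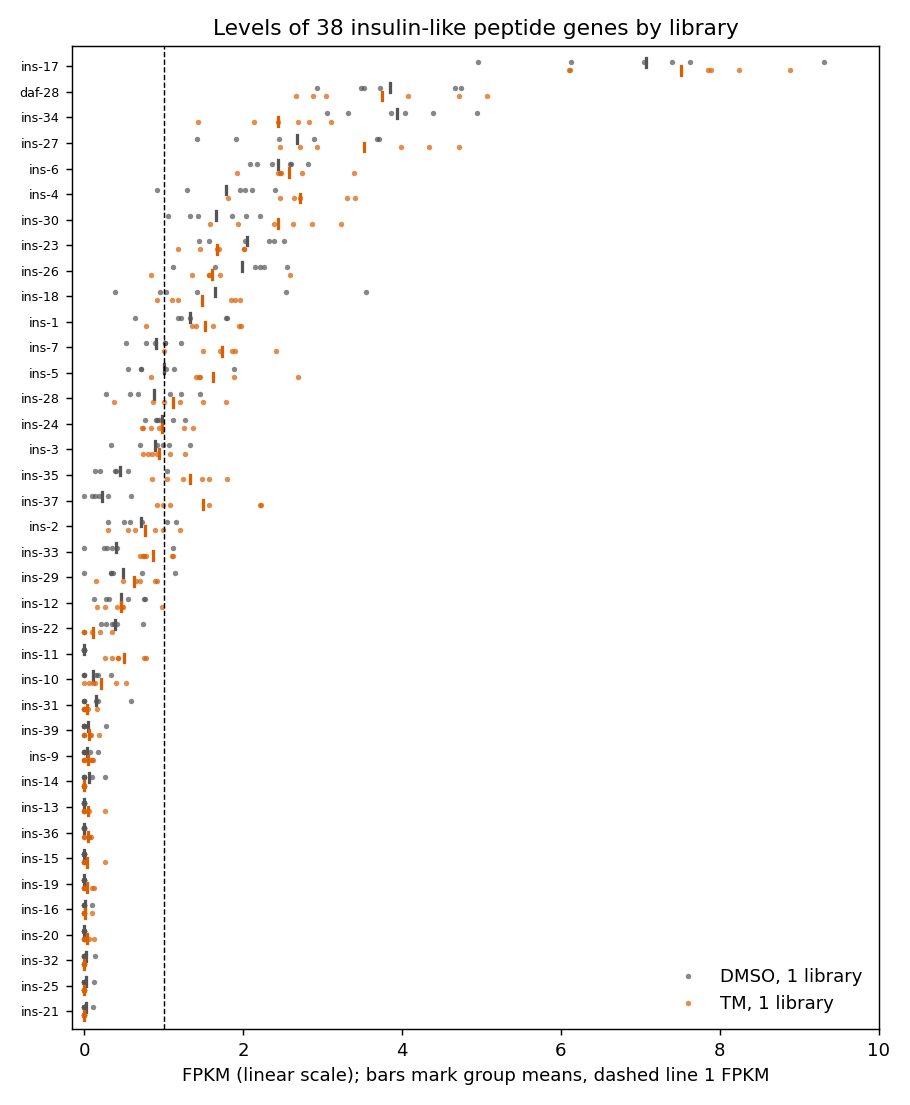
FPKM (x axis, linear) of each of the 38 members (rows, ordered by mean) in the 12 libraries, with grey points for DMSO and orange for TM, bars at group means and a dashed line at 1 FPKM. The highest mean is that of ins-17, and the rows from ins-12 down stay below 1 FPKM in every library.

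Summed over the 38 members, the level ran from 34.7 to 44.8 FPKM across DMSO libraries and from 39.4 to 48.4 FPKM across TM libraries, so the ranges overlap. The 5 members with the highest means, ins-17, daf-28, ins-34, ins-27 and ins-6, held 47.8% of the family's summed FPKM. Their exons are short. The members' exons sum to between 284 and 955 bases, with a median of 430.5 bases, against a median of 1373 bases in the tested genes of the table, so a given FPKM rests on fewer counts here. At low values the counts fell on multiples of 4 more often than even spacing gives. Of the counts from 4 to 40 in a library, 36.8% to 43.8% were multiples of 4, where 27.0% would be with even spacing. A count is therefore not taken as 1 independent fragment, and no counting interval or detection limit is given for the members listed at 0.

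In WBcel235 the family lies on 6 chromosomes, with 15 members on chromosome II and 10 on chromosome I. Neighbours no more than 25 kb apart formed 6 clusters that together hold 23 members. The largest cluster, on chromosome I from 14012369 to 14037777, holds ins-28, ins-29, ins-25, ins-27, ins-24, ins-30 and ins-26, with mean levels from 0.00999 to 3.10 FPKM. The next, on chromosome II from 5988524 to 6011321, holds ins-2, ins-3, ins-4, ins-5, ins-6 and ins-20, from 0.0160 to 2.51 FPKM. Some neighbours had like levels, such as ins-2 and ins-3 at 0.741 and 0.920 FPKM, and others did not, such as ins-6 and ins-20 at 2.51 and 0.0160 FPKM.

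Comparing TM with DMSO asks whether the transcripts of these ligands changed with the treatment. Among the 11535 genes whose mean reached 1 FPKM, edgeR's quasi-likelihood test called 39.8% at an adjusted p of 0.05, 23.7% higher and 16% lower. Of the 14 members in that fit 2 passed, ins-7 higher and ins-34 lower in TM, and 12 did not. Both ins-7 and ins-28 had DMSO means below 1 FPKM and entered that fit through their TM libraries, so the call of ins-7 is in part set by the filter and is given under wider filters below. An unadjusted edgeR p under 0.05 was found for 4 of the 14, which adds ins-4 and ins-30, and for 48.7% of all genes tested. The median log2 change of the 14 was 0.11, against -0.01 over all genes tested. With a correction for exon length centred in each library it was -0.036, against 0.025 over all genes, so the order of the medians turned. In the uncorrected fit 9 of the 14 changes were above 0, those of ins-7 and ins-28 among them. The share of all genes above 0 is not given. Because many members lie below 1 FPKM, the same test was also run on genes with a mean count of at least 10, where 39.3% of 15353 genes were called, 23.3% higher and 15.9% lower. Of the 22 members in that fit 4 passed, with ins-37 and ins-35 higher in TM beside ins-7, and ins-34 lower. The median change of the 22 was 0.07, against 0.03 over all genes tested. With the same length correction it was -0.011, against 0.040. Quantile normalization was applied to log2(FPKM + 1) and tested in limma. The added 1 shrinks log2 changes at low levels, so they are not on the edgeR scale. Under this normalization the split of all genes turned, to 1933 higher and 2945 lower of 11535 and to 2627 higher and 3833 lower of 15353. The split of the members turned with it: 0 members were higher and 5 lower among the 14, and 1 was higher and 6 lower among the 22. The 5 were ins-34, ins-26, ins-23, daf-28 (log2 change -0.42, limma adjusted p = 0.027) and ins-6 (-0.36, adjusted p = 0.00863).

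**Figure D2:**
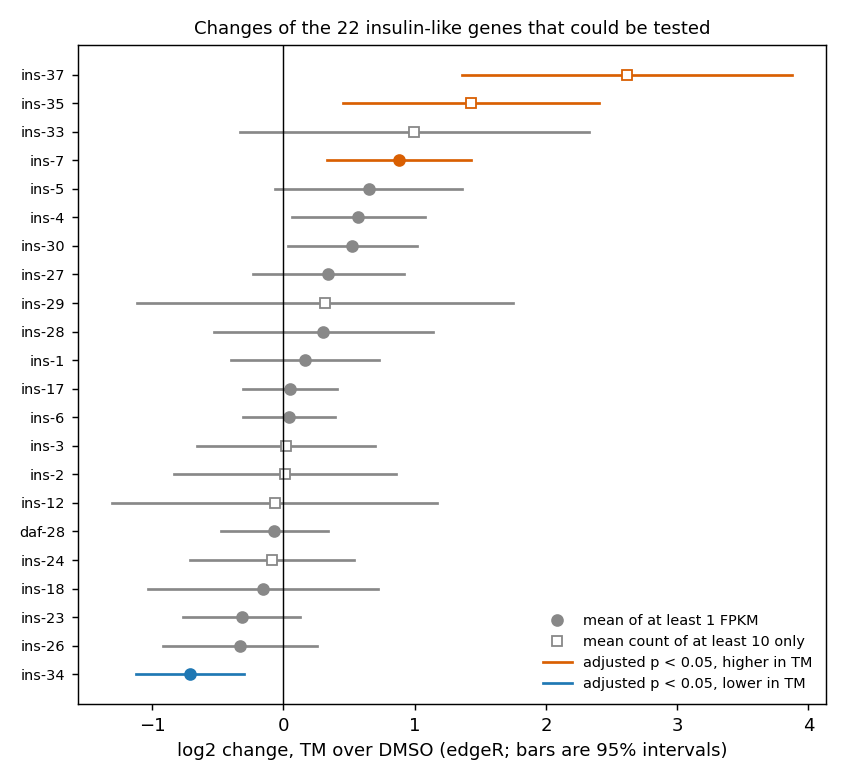
Log2 change of TM over DMSO (x axis) with its 95% interval for the 22 members tested (rows), from edgeR's quasi-likelihood fit. Filled circles are members whose mean reached 1 FPKM, open squares members with a mean count of at least 10 only, orange and blue mark an adjusted p under 0.05; ins-37 has the largest change, 2.62, and 18 members did not pass.

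The member with the largest tested change was ins-37 (chromosome II, 13835101 to 13836107, minus strand), which rose. It stood at 0, 0.163 and 0.594 FPKM (lowest, median and highest) in DMSO and at 0.919, 1.33 and 2.22 FPKM in TM. All 6 TM libraries lay above all 6 DMSO libraries, and the highest DMSO value came from DMSO replicate 6. Such a separation with TM higher was found in 17.5% of the genes with a mean count of at least 10. The means were 0.221 ± 0.209 and 1.499 ± 0.601 FPKM (SD, n = 6), and the log2 change was 2.62 ± 0.59 (SE; edgeR adjusted p = 0.00282). Without DMSO replicate 6 the log2 change was 3.26, and without DMSO replicates 2 and 6 and TM replicate 5 it was 3.53. The exons of ins-37 overlap those of 2 short noncoding genes, F08G2.9 at 0.0851 and 0.00763 FPKM in DMSO and TM and R05D7.8 at 0.0395 and 0.0794 FPKM.

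The gene ins-35 (chromosome V, 20375536 to 20376302, plus strand) rose as well. It stood at 0.136, 0.398 and 1.04 FPKM in DMSO and at 0.860, 1.37 and 1.803 FPKM in TM. The groups overlapped through DMSO replicate 4, the highest control library, which lay above TM replicate 4 and just above TM replicate 5. The log2 change was 1.43 ± 0.46 (SE; edgeR adjusted p = 0.0218), from 0.455 ± 0.325 to 1.33 ± 0.351 FPKM (SD, n = 6). The call was lost under quantile normalization of log2(FPKM + 1), with a log2 change of 0.35 on that scale (limma adjusted p = 0.0556). It was also lost under a correction for exon length that was not centred in each library, with 1.02 (edgeR adjusted p = 0.0636).

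The gene ins-7 (chromosome IV, 9682011 to 9682845, minus strand) encodes a peptide that acts as a DAF-2 agonist and whose expression in the intestine is lowered by DAF-16. It stood at 0.534, 0.954 and 1.22 FPKM in DMSO and at 1.003, 1.79 and 2.42 FPKM in TM. Most TM libraries lay above every DMSO library, and TM replicate 4, the lowest, lay among the controls. The mean went from 0.909 ± 0.236 to 1.73 ± 0.471 FPKM (SD, n = 6), a log2 change of 0.88 ± 0.26 (SE; edgeR adjusted p = 0.0141). With each library left out in turn the adjusted p stayed between 0.00693 and 0.0361. Among genes with a mean count of at least 10 the adjusted p was 0.0374, and leaving out any of 8 libraries ended that call, the adjusted p running from 0.0220 to 0.0725. Without DMSO replicates 2 and 6 and TM replicate 5 together it was 0.0571 there. Over all genes with at least 1 count the adjusted p was 0.0502. Among genes with a mean count of at least 10 the call also ended with an exon length correction centred in each library. In the fit of genes reaching 1 FPKM the call was lost under quantile normalization of log2(FPKM + 1), with 0.04 (limma adjusted p = 0.824). Without that normalization, limma on log2(FPKM + 1) gave a log2 change of 0.51 (adjusted p = 0.00609).

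The gene ins-34 (chromosome IV, 14106574 to 14107737, plus strand) was the only member called lower in both fits. It stood at 3.06, 3.95 and 4.94 FPKM in DMSO and at 1.43, 2.56 and 3.10 FPKM in TM. The ranges touched only where the highest TM library, replicate 1, exceeded the lowest DMSO library, replicate 6. The mean went from 3.94 ± 0.687 to 2.44 ± 0.594 FPKM (SD, n = 6), a log2 change of -0.71 ± 0.19 (SE; edgeR adjusted p = 0.00929). Its exons overlap those of nkcc-1 on the other strand, a cation-chloride cotransporter gene at 22.6 ± 1.63 and 23.7 ± 0.880 FPKM. Whether counting kept the strands apart is not given in the sources used here, so reads of the pair may not be told apart. The log2 change of nkcc-1 was -0.01 ± 0.07 (edgeR adjusted p = 0.896).

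**Figure D3:**
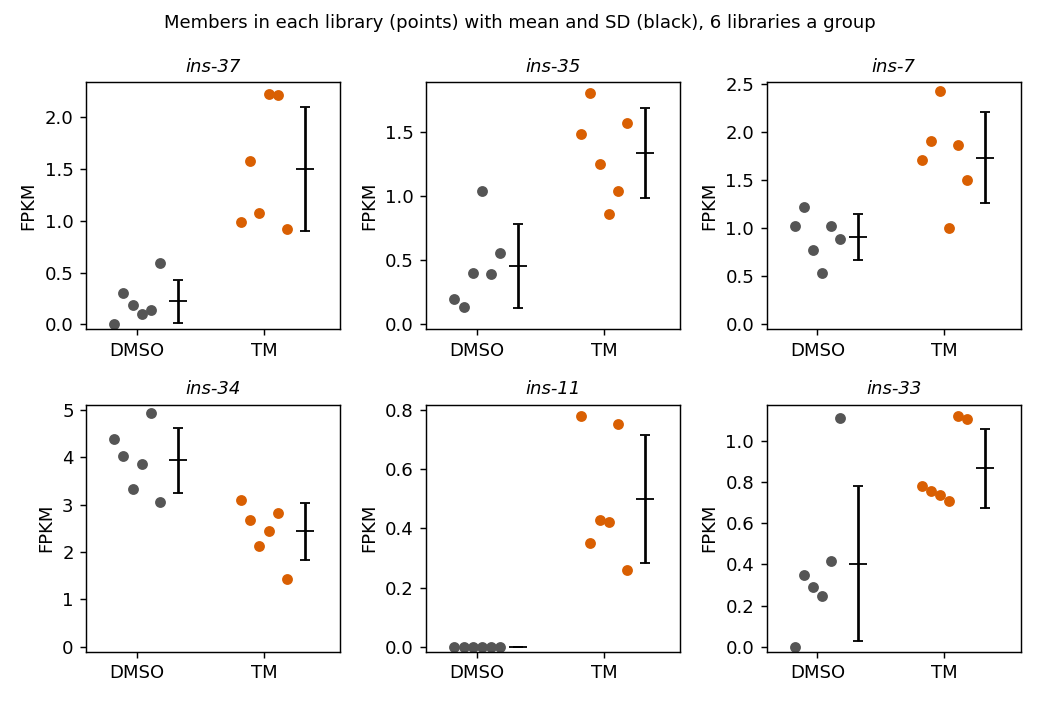
FPKM (y axis, linear, a separate scale in each panel) of ins-37, ins-35, ins-7, ins-34, ins-11 and ins-33 in the 6 DMSO (grey) and 6 TM (orange) libraries, with mean and SD in black. The groups do not overlap for ins-37 and ins-11, and 1 DMSO library of ins-33 lies among the TM libraries.

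The genes daf-28, ins-6 and ins-4 encode agonists that larvae use to avoid or leave dauer arrest, and these 3 genes did not pass the edgeR test. The gene daf-28 (chromosome V, 19815133 to 19816442, plus strand), made in sensory neurons, stood at 2.92, 3.62 and 4.74 FPKM in DMSO and at 2.67, 3.56 and 5.08 FPKM in TM. The groups covered nearly the same range, with a log2 change of -0.07 and a 95% interval from -0.48 to 0.34 (edgeR adjusted p = 0.796). The gene ins-6 (chromosome II, 6000436 to 6001009, plus strand) stood at 2.08, 2.48 and 2.82 FPKM in DMSO and at 1.92, 2.47 and 3.40 FPKM in TM. Its log2 change was 0.04, with an interval from -0.31 to 0.39 (edgeR adjusted p = 0.848), and the TM libraries spread on both sides of the controls. The gene ins-4, beside ins-6 in the same cluster, had mean levels of 1.78 ± 0.558 and 2.72 ± 0.587 FPKM and a log2 change of 0.57 ± 0.24 (edgeR adjusted p = 0.0693). It passed when TM replicate 4 (adjusted p = 0.0434) or DMSO replicate 3 (0.0477) was left out.

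The genes ins-17, ins-1 and ins-18, whose products are described as antagonists, did not pass either. The gene ins-17 (chromosome III, 4476918 to 4477572, minus strand), which favours dauer arrest, had the highest level of the family, and 69.4% of all genes had a lower mean. It stood at 4.95, 7.22 and 9.31 FPKM in DMSO and at 6.10, 7.87 and 8.88 FPKM in TM, with the TM range inside the DMSO range. The log2 change was 0.05, with an interval from -0.31 to 0.41 (edgeR adjusted p = 0.823). The gene ins-1 (chromosome IV, 10436701 to 10438412, plus strand), among the members closest to vertebrate insulin, stood at 0.644, 1.28 and 1.798 FPKM in DMSO and at 0.786, 1.52 and 1.97 FPKM in TM. These ranges overlap over most of their length, and the log2 change was 0.16 with an interval from -0.40 to 0.73 (edgeR adjusted p = 0.641). The gene ins-18 (chromosome I, 8147427 to 8149651, plus strand) stood at 0.387, 1.23 and 3.54 FPKM in DMSO and at 0.917, 1.52 and 1.96 FPKM in TM. The DMSO libraries held both the lowest value, in replicate 6, and the highest, in replicate 5. Its log2 change was -0.16, with an interval from -1.03 to 0.72 (edgeR adjusted p = 0.780).

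Of the other abundant members, ins-27 (chromosome I, 14027236 to 14027588, plus strand) stood at 1.43, 2.67 and 3.71 FPKM in DMSO and at 2.47, 3.46 and 4.72 FPKM in TM. The upper TM libraries lay above the controls and the others among them, and the log2 change of 0.34 ± 0.27 did not pass (edgeR adjusted p = 0.330). The gene ins-30 had mean levels of 1.66 ± 0.450 and 2.44 ± 0.606 FPKM and a log2 change of 0.53 (edgeR adjusted p = 0.0827). It passed without TM replicate 4 (adjusted p = 0.0460). The gene ins-5 had means of 1.01 ± 0.480 and 1.62 ± 0.620 FPKM and a log2 change of 0.65 (edgeR adjusted p = 0.134), which became 0.95 without DMSO replicate 6 (adjusted p = 0.0207). Without that library ins-5 also passed among genes with a mean count of at least 10. The remaining 3 of the 14, ins-23, ins-26 and ins-28, had log2 changes of -0.32, -0.33 and 0.31 and did not pass.

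Among the 8 members with a mean count of at least 10 but below 1 FPKM, the 6 that did not pass included ins-33, which is named here after its values were seen. It stood at 0, 0.319 and 1.11 FPKM in DMSO and at 0.707, 0.768 and 1.12 FPKM in TM. All TM libraries lay above 5 of the DMSO libraries, and DMSO replicate 6 lay among the TM libraries. The log2 change was 0.999 ± 0.62 (edgeR adjusted p = 0.219), and 1.67 without DMSO replicate 6 (adjusted p = 0.0356). This gene also passed without DMSO replicates 2 and 6 and TM replicate 5 together. The other 5, ins-2, ins-3, ins-12, ins-24 and ins-29, had log2 changes between -0.09 and 0.32, with no adjusted p below 0.736.

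The last 16 members had mean counts under 10 and no library above 0.779 FPKM. The gene ins-11 (chromosome II, 5556731 to 5557173, plus strand), an intestinal peptide known from the avoidance of pathogenic bacteria, is named here after its values were seen. It was listed at 0 in all 6 DMSO libraries and at 0.258, 0.426 and 0.779 FPKM in TM, from 7 to 22 counts a library. Every TM library thus held counts and no DMSO library did, and no fold is given against libraries listed at 0. TM libraries all above the DMSO libraries, whatever the DMSO level, were found in 11.4% of all genes. The share with no DMSO count and counts in every TM library is not given. With every gene that had at least 1 count in the fit, 5 of 38 members passed, against 23.3% of all genes, 15.5% higher and 7.78% lower. These were ins-11, ins-37, ins-35 and ins-36 higher and ins-34 lower, and ins-36 rested on at most 4 counts a library. The exons of ins-36 overlap those of Y53H1A.7 on the other strand. Both ins-11 and ins-36 were listed at 0 in all 6 DMSO libraries and entered that fit only through their TM libraries. Their calls are thus in part set by the filter. In all, 6 members had no count in any DMSO library but some in TM, as did 10.4% of all genes. The reverse held for 4 members and 7.16% of all genes. The rare members ins-22, ins-10 and ins-31 reached at most 0.743, 0.530 and 0.597 FPKM, and the exons of ins-10 overlap those of vps-39 on the other strand. The other 12 rare members had counts in 1 to 5 libraries and mean levels of at most 0.0536 FPKM.

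The counts of calls in the lists below stand beside 39.8% of all tested genes called, 23.7% higher and 16% lower, and none is read as particular to its list. Of the 14 genes of the receptor and its pathway, all tested, 2 rose and 3 fell, a share close to that of all genes. The kinase gene akt-2 went from 10.01 ± 0.747 to 14.8 ± 2.51 FPKM (log2 change 0.53 ± 0.09, edgeR adjusted p = 0.000511), and ist-1, an insulin receptor substrate homologue, from 2.13 ± 0.285 to 3.26 ± 0.678 FPKM. The kinase gene pdk-1 fell by 0.38 on the log2 scale (edgeR adjusted p = 0.000474), and daf-16 fell by 0.25 (adjusted p = 0.00103). The receptor gene daf-2 had means of 12.01 ± 0.949 and 10.8 ± 1.53 FPKM and did not pass (adjusted p = 0.0848). The median log2 change of the list was -0.12.

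Of 13 tested genes for peptide processing and dense-core vesicles, 4 rose and 0 fell, against the same 39.8% called and 23.7% higher among all genes. They were the proprotein convertase genes egl-3 (log2 change 0.31 ± 0.09) and aex-5 (0.21 ± 0.07), the carboxypeptidase gene egl-21 (0.25 ± 0.08) and the vesicle gene ida-1 (0.35 ± 0.10), with edgeR adjusted p from 0.0102 to 0.0329. Of 13 tested genes that DAF-16 is known to raise, 3 rose and 3 fell. The lysozyme gene lys-7 fell by 1.23 on the log2 scale (edgeR adjusted p = 5.35e-06), while nnt-1 rose by 0.79 (adjusted p = 0.000147), and icl-1, of the glyoxylate cycle, rose by 0.45 (adjusted p = 0.000697). The superoxide dismutase gene sod-3 stood at 5.09 ± 0.847 and 5.00 ± 0.774 FPKM and did not pass. Of 9 tested genes that DAF-16 is known to lower, 0 rose and 5 fell, among them the yolk protein genes vit-2 and vit-5, by 0.43 and 0.58 on the log2 scale. The median of that list was -0.42.

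**Figure D4:**
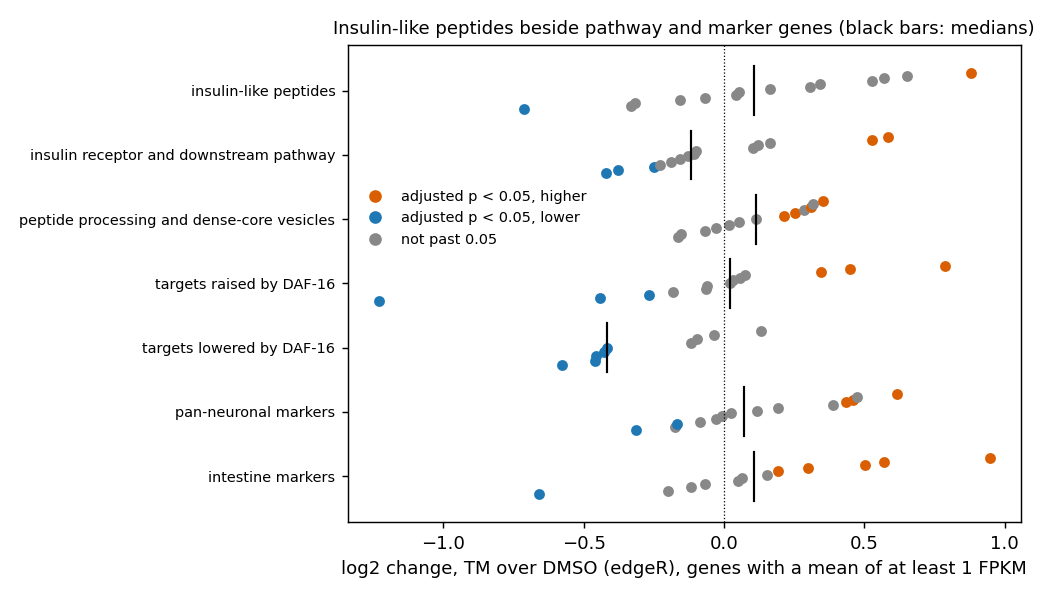
Log2 change of TM over DMSO (x axis) of each tested gene (points) in 7 lists (rows), with list medians as black bars and orange and blue for an adjusted p under 0.05. The median is 0.11 for the insulin-like peptides and -0.42 for targets lowered by DAF-16.

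Markers of tissues were read against the same 39.8% of all tested genes. Of 14 tested pan-neuronal markers, 3 rose (unc-64, ric-4 and sng-1) and 2 fell (unc-119 and ehs-1). The summed level of the 16 listed genes was 429 to 466 FPKM in DMSO and 420 to 460 FPKM in TM. Most of that sum was snb-1, with means of 282 and 271 FPKM, so it says little of the rarer markers. Of 12 markers of ciliated sensory neurons, which make daf-28 and ins-6, only osm-3 reached a mean of 1 FPKM and it did not pass. Their summed level was 3.08 to 4.67 FPKM in DMSO and 3.42 to 5.69 FPKM in TM, and tax-4 stood below 0.1 FPKM. Of 12 intestine markers, 5 rose and 1 fell, cpr-1, with summed levels of 2629 to 3224 and 2862 to 3447 FPKM. Most of that sum was asp-1, with means of 1996 and 2135 FPKM. Of 11 tested epidermis markers 7 rose and 1 fell, with summed levels of 109 to 140 and 256 to 318 FPKM. Those that rose were dpy-7, rol-6, wrt-1, wrt-10, bus-8, vha-5 and dpy-13. In that sum dpy-13 went from a mean of 9.92 to 139 FPKM. The regulators elt-1, elt-3 and nhr-25 did not pass, and lin-26 fell. Of 7 tested sperm markers 6 rose and 0 fell, with 19.2 to 31.04 and 60.3 to 76.4 FPKM, and of 12 oocyte and germline markers 0 rose and 8 fell, with 5239 to 5823 and 4338 to 4923 FPKM. The part of these tissues in the values of ins-37, ins-35, ins-7 and ins-34 was not tested.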

How the data were processed

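Poly(A) RNA was sequenced in 12 libraries, 6 a group. Per the submitters' processing notes the authors used cutadapt 1.9, FastQC, HISAT2 2.2.1 and StringTie, and the deposited table gives a raw read count and an FPKM value per gene and library, per the file headers. Neither genome build nor counting rule is stated there. Of the gene identifiers 24232 matched the WBcel235 table of RefSeq, with equal starts for 97.0% and equal ends for 95.9%.

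Counts were tested in R 4.3.3 with edgeR 4.0.16 (quasi-likelihood, TMM scaling, robust, two-sided, treatment as the only term). Benjamini-Hochberg adjustment ran over all 11535 genes whose mean reached 1 FPKM, or all 15353 with a mean count of at least 10, with a threshold of 0.05. The SE is the log2 change divided by the square root of F. Alternatives used DESeq2 1.42.0, limma 3.58.1, other scalings and filters, a replicate block, a correction for exon length and fewer libraries. The scripts were tested on simulated data. Each library counts as 1 replicate, as the labels number them. Within groups none of the 30 library pairs agreed within counting noise (chi-square of 12.8 to 139 per degree of freedom), which checks for a library deposited more than once and says nothing of separate cultures.

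The members and gene lists were chosen with earlier results of these data known. The lowest, median and highest level of each group are given for the members past the threshold among the 14 or the 22. They are also given for the 5 most abundant, and for daf-28, ins-1, ins-6, ins-7 and ins-18. For the receptor pathway and the peptide processing list, values are given for the 4 genes past the threshold with the smallest p. Of the other lists only some of these genes are named. Other genes named with values were chosen after these were seen. The values of 1 pathway gene past the threshold are not reported here.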

Additional observations from a re-analysis of the deposited data

Results flagged for a closer look

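In DMSO replicate 6 the level of ins-33 was 1.11 FPKM, against 0 to 0.417 FPKM in the other DMSO libraries. The gap to the next library covers 0.6258 of the group's range and only just exceeds Dixon's limit for 6 values, 0.625. Of 44 groups examined (22 members in 2 groups) 1 was flagged, where chance flags about 1 in 20 if values are normally distributed.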

How the results depend on the processing

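Over the 22 members tested, 528 alternative values were computed, of which 433 kept direction and side of the threshold, 9 lost the call, 20 gained one and 66 turned in sign. Each member was tallied in 1 fit only, that of genes reaching 1 FPKM where it was in that fit. The 9 thus leave out the calls of ins-7 that ended among genes with a mean count of at least 10, with 8 single libraries left out among them. The signs that turned belonged to members that did not pass, and ins-34 and ins-37 kept their calls in every alternative; the causes were not tested. The count of all genes called stayed within 1.5 times the 4590 reported in every alternative but the length correction without centring, and leaving out each library gave 3974 to 5343.

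The 2 calls among the 14 members became 5 with quantile normalization, 1 with the replicate block and length correction, and 2 to 4 with each library left out, the 4 without TM replicate 4. With no filter 5 of all 38 members were called, and of the 14 only ins-34 among them, which leaves 1. The 4 calls among the 22 became 7 with limma on log2(FPKM + 1), 7 with quantile normalization, 2 with the replicate block, 2 with block and length correction, and 3 to 6 with each library left out, the 6 without DMSO replicate 6. The replicate numbers did not pair the libraries: same-numbered deviations correlated from -0.50 to 0.37, with 3 of 6 over 0.1 and 1 of 6 best with its own number. With the replicate block, ins-35 had a log2 change of 1.61 (adjusted p = 0.0653) and ins-7 an adjusted p of 0.0694 among the 22.

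The length correction was planned without saying whether the trend is centred in each library. Its first version was not centred and so replaced the TMM level, and centring was chosen after its output, member calls included, had been seen. The version without centring, kept as an added alternative, moved the median of all genes to -0.24 and called 7112 genes. It called 4 of the 14 members, all lower (ins-26, daf-28, ins-23 and ins-34), also with the replicate block, and ended the calls of ins-7 (0.45, adjusted p = 0.155) and ins-35 (1.02, adjusted p = 0.0636). Quantile normalization moved the median of all genes to -0.09.

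With quantile normalization the log2 change turned to -0.19 for ins-17, -0.081 for ins-27, -0.36 for ins-6, -0.052 for ins-30, -0.34 for ins-1, -0.10 for ins-5, -0.32 for ins-28, -0.31 for ins-3, -0.30 for ins-2 and -0.14 for ins-29. With length correction it turned to -0.079 for ins-17, -0.11 for ins-6, -0.057 for ins-3 and -0.041 for ins-2, and with the replicate block added to -0.079 for ins-17, -0.12 for ins-6 and -0.046 for ins-2. Without centring it turned to -0.34 for ins-17, -0.14 for ins-27, -0.38 for ins-6, -0.26 for ins-1, -0.19 for ins-28, -0.39 for ins-3, -0.39 for ins-2 and -0.18 for ins-29, and with the block added to -0.34 for ins-17, -0.088 for ins-27, -0.38 for ins-6, -0.25 for ins-1, -0.15 for ins-28, -0.33 for ins-3 and -0.39 for ins-2. Without DMSO replicates 2 and 6 and TM replicate 5 it turned to 0.069 for daf-28, -0.034 for ins-28, 0.078 for ins-24, -0.13 for ins-3, -0.054 for ins-2 and -0.11 for ins-29. For ins-18 it turned to 0.10 and 0.0015 in limma with a pseudocount of 0.1 and 1, and to 0.033 with the replicate block. It turned to 0.0010 for ins-24 with total counts only and to 0.0060 for ins-12 in limma with a pseudocount of 0.1. With each library, or those 3, left out it ran from -0.040 to 0.17 for ins-17, -0.18 to 0.069 for daf-28, -0.043 to 0.12 for ins-6, -0.61 to 0.19 for ins-18, -0.034 to 0.49 for ins-28, -0.20 to 0.078 for ins-24, -0.13 to 0.16 for ins-3, -0.16 to 0.18 for ins-2, -0.11 to 0.71 for ins-29 and -0.60 to 0.12 for ins-12.

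Of the 38 members 16 had mean counts under 10, and a count could not be taken as 1 fragment.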
